A study of Homo sapiens with 17 samples.

Results

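RNA from MDA-MB-231 cells that had been with TRAIL for 3 h was compared with RNA from the same cells at 0 h, across all genes. The members are the 3 libraries labelled 3 h and the 3 labelled 0 h, 6 of the 17 libraries analysed here. The others were taken at 1, 6, 12 and 24 h (2 libraries at 1 h, 3 at each other time). MDA-MB-231 is an established line of triple-negative breast cancer, a tumour type without oestrogen receptor, progesterone receptor or HER2 amplification, and the labels class it as mesenchymal and basal B. The dose was 45 nM throughout, which the design text calls suboptimal and gives as a way to observe living cells, and the question it states is how the transcriptome responds to TRAIL. Every library carries the treatment label for TRAIL, the 0 h libraries too, and none of those analysed was labelled as untreated at a later time. The effect of TRAIL therefore cannot be told apart from that of hours in culture or of handling. The labels do not say whether replicates were separate cultures, so p-values measure the spread between these libraries, which may be technical.

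TRAIL is a ligand of the TNF family. It binds the death receptors encoded by TNFRSF10A and TNFRSF10B, which recruit FADD and caspase-8 and can start apoptosis. The same receptors can also signal through TRAF adaptors and the IKK kinases to NF-κB, a family of dimeric transcription factors that is held in the cytoplasm by IκB proteins. In the canonical branch IκB is degraded and dimers with RelA enter the nucleus. In the noncanonical branch the kinase NIK leads to processing of the NFKB2 product p100 to p52, the partner of RelB. NF-κB raises the genes of cytokines, of survival factors and of its own inhibitors, while MAP kinases act in parallel on the AP-1 factors of the JUN and FOS families.

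The promoters of the genes below were searched for the κB sequence, the 10-base DNA site that NF-κB binds. RefSeq promoters (GRCh38.p14, 250 bases before to 50 after the start of a gene) were matched by symbol for 34 of the 36 genes examined, which were the 30 genes named by rule below and the called NF-κB subunit and inhibitor genes. A κB match was present in 9 of these 34, and in 6 of the 14 matched promoters among the 15 genes named as highest. The latter 6 are printed below, to show where the sites lie, as the 250 bases before the start, on the strand of the gene from 5′ to 3′, with each κB match in capitals. They are the promoters of 2 chemokines, an inhibitor of apoptosis, a cytokine and 2 inhibitors of NF-κB. The windows on the plus strand are chr4:73869143-73869392 for CXCL1, chr11:102317234-102317483 for BIRC3, chr7:22726950-22727199 for IL6 and chr6:137867009-137867258 for TNFAIP3. Those on the minus strand are chr4:74099196-74099445 for CXCL2 and chr14:35404750-35404999 for NFKBIA.
CXCL1: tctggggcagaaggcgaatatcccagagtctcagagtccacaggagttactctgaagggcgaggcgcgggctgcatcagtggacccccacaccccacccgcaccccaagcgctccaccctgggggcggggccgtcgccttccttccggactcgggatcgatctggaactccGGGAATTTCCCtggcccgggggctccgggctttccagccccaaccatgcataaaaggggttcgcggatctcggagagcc
BIRC3: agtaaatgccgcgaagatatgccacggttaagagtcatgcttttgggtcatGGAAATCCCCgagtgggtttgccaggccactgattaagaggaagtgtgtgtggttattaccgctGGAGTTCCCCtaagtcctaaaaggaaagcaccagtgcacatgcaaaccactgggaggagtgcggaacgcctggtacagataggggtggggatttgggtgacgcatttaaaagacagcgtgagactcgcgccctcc
IL6: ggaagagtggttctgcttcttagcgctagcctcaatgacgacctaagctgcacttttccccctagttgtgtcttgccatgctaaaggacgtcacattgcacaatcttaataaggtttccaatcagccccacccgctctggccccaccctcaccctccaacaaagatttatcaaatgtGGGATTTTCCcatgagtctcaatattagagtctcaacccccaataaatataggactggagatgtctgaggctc
TNFAIP3: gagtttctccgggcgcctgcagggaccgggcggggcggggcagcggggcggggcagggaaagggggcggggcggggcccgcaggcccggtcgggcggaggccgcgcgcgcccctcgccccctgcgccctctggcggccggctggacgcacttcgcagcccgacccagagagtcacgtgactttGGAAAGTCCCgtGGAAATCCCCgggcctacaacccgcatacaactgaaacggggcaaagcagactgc
CXCL2: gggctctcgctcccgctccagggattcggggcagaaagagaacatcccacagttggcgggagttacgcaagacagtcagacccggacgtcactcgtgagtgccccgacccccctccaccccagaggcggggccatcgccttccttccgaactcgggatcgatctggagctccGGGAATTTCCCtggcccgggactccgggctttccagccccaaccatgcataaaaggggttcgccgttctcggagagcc
NFKBIA: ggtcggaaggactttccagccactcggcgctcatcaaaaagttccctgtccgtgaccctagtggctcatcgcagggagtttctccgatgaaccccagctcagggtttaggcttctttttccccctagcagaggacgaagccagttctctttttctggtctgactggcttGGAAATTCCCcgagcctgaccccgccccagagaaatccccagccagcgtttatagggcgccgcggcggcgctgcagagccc

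CXCL1 and CXCL2 carried the same 11-base run of 2 overlapping matches, GGGAATTTCCC, which started at -79 in CXCL1 and at -78 in CXCL2, counted from the gene start. The IL6 match, GGGATTTTCC, started at -73 and the NFKBIA match, GGAAATTCCC, at -81. TNFAIP3 held GGAAAGTCCC at -67 and GGAAATCCCC at -55, whereas the sites of BIRC3 lay farther upstream, at -199 and -135. The other 8 of those 14, the promoters of CSF2, CXCL8, NUAK2, JUNB, TRAF1, IL11, ZC3H12A and KRTAP2-3, held no match, which says only that these letters are not in this window. Both strands were searched in the whole 300-base windows. A κB match was present in 32.0% of the promoters of genes at least 2-fold higher (16 of 50), in 6.52% of those at least 2-fold lower (3 of 46) and in 13.1% of all genes tested that had a promoter in the table (1390 of 10571). Among all genes called higher the share was near that background, at 13.8% (138 of 1003), as it was among all called lower, at 13.4%. In the whole table of 27305 promoters it was 10.8%. The AP-1 motif TGANTCA was found in 7 of the 50 promoters at least 2-fold higher and in 4.83% of those tested. The CRE motif TGACGTCA was found in 2.0% and 3.2%, and the CArG box in 2.0% and 1.02%. These matches are descriptions of sequence; no binding was measured, and no test was made.

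The 6 libraries held between 13731520 and 16396843 counts, with the 3 h libraries the shallower group (up to 14520482, against at least 15889140 at 0 h). Mitochondrial genes took 5.53% to 8.37% of the counts at 0 h and 7.99% to 8.97% at 3 h. Within each library, log2 CPM relative to the mean of all 17 was regressed on log2 length of each gene's longest annotated transcript. The slope was -0.064 to -0.010 per doubling at 0 h and -0.136 to -0.061 at 3 h, ranges that just overlapped. The first principal component of the 6 libraries (38.5% of the variance) separated the groups, with 0 h between -27.7 and -10.87 and 3 h between 13.34 and 30.35, and library 1 of 0 h lay nearest to the 3 h libraries. Of the markers of the line, VIM stood between 3249 and 3720 CPM, CD44 at 1227 CPM or more and AXL at 660.3 CPM or more. ESR1, PGR and FOXA1 had at most 2 counts in any of the 6 libraries and CDH1 at most 9, whereas ERBB2 (56.34 to 68.04 CPM), EPCAM and GATA3 were present at low levels. Of 8 leukocyte markers, 4 had 0 counts in all 6 libraries, CD3E, MS4A1 and NKG7 among them, and the summed level of the 8 was 76.94 to 87.44 CPM at 0 h and 59.37 to 66.04 CPM at 3 h, most of it CD68. Of 7 fibroblast markers only 1, DCN, was at 0 counts throughout, and COL1A1, COL1A2 and PDGFRB were detected in every library. The summed level of the 7 was 18.46 to 21.79 CPM at 0 h and 19.13 to 26.01 CPM at 3 h. Of 4 endothelial markers only 1, CDH5, was at 0 counts throughout, and PECAM1 and KDR were detected in every library. The summed level of the 4 was 3.357 to 4.973 CPM at 0 h and 2.371 to 3.103 CPM at 3 h. In several genes named below the estimated counts were fractional in 10 to 16 of the 17 libraries, which means that reads were divided between overlapping or similar genes and that the values are uncertain: CCN2, DKK1, FADS2, ICAM1, MAFG, MAP3K14, NR4A1, PDK1, PMEPA1, SLC2A3, TNFRSF10A, TRAF4 and WWTR1. Genes where this holds in all 17 are marked as they come. The part of depth, mitochondrial share and length slope in the results below was not tested except where a value is given.

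At 3 h, 1389 of the 15365 genes tested were higher (9.04%) and 1338 lower (8.71%) than at 0 h. A gene was called when its p-value from edgeR's quasi-likelihood test, adjusted by Benjamini-Hochberg over all genes tested, was below 0.05. By at least 2-fold, 100 genes were higher (0.651%) and 66 lower (0.43%), and the libraries of the groups did not overlap for 98 and 63 of them. The differences were mostly small: 70.4% of the called genes had an absolute log2 fold change below 0.5, and the median log2 fold change of all genes tested was -0.004. When libraries were scaled by total count alone, that median moved to -0.073 and the calls split into 913 higher and 2153 lower. The counts depended on single libraries, which are numbered by their replicate. They were 746 higher and 666 lower when library 3 of 0 h was left out, 791 and 763 for library 2 of 0 h, 830 and 739 for library 2 of 3 h, and 877 and 797 for library 1 of 3 h. By at least 2-fold, 66 genes were higher after library 1 of 3 h was dropped, 63 were higher after library 2 of 3 h was dropped, and 40 were lower after library 2 of 0 h was dropped. A set of 562 genes was higher and 483 lower under every one of the 19 alternatives that tested them and gave an adjusted p. By the edgeR test above, 56 and 29 of these differed by at least 2-fold. The alternatives had to repeat the call and its direction, not the 2-fold size. The genes described below were called under all of those alternatives unless another value stands beside them.

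**Figure D1:**
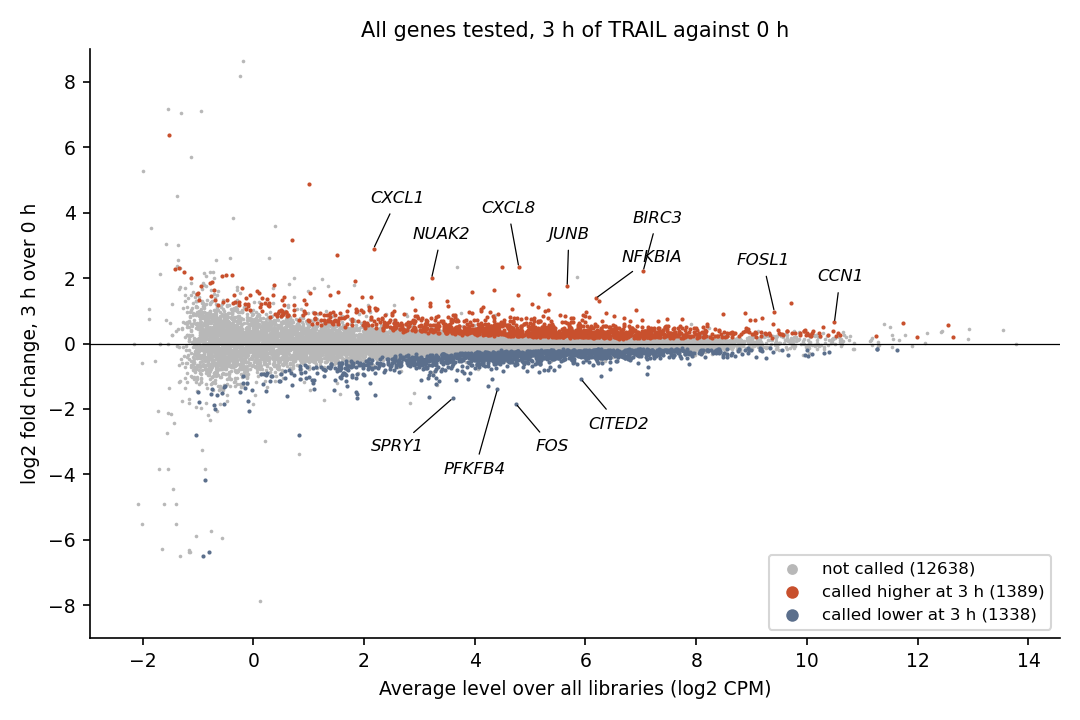
Each point is 1 of the 15365 genes tested, with its average level over all libraries (log2 CPM) on the x axis and its log2 fold change at 3 h over 0 h on the y axis. Genes called higher (1389) are red, those called lower (1338) blue and the rest grey; the grey points far from 0 have few counts, and among the labelled genes CXCL1 is the highest (2.90) and FOS the lowest (-1.85).

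Among the genes named by rule, the highest fold changes were those of CXCL1, CSF2 and CXCL8, which encode secreted signals to leukocytes. All 4 tested genes of neutrophil-attracting CXC chemokines were higher, against 9.04% of all genes tested, with a median log2 fold change of 1.96. The 3 further members of the list (CXCL5, CXCL6 and PPBP) had at most 2 counts in any library and were not tested. CXCL8, the chief neutrophil attractant of human cells, measured 10.64, 9.28 and 14.1 CPM at 0 h and 57.9, 52.7 and 61.7 CPM at 3 h (log2 fold change 2.34, SE 0.115, adjusted p 4.5e-11), 5.07-fold higher. CXCL1 rose from a low base, with 1.24, 1.184 and 1.62 CPM at 0 h and 8.82, 10.8 and 10.8 CPM at 3 h. Its counts went from 19 to 26 counts per library to 119 to 151 (log2 fold change 2.904, SE 0.186, adjusted p 1.7e-09). CXCL2 measured 4.36, 4.49 and 5.48 CPM at 0 h and 15.6, 10.02 and 12.05 CPM at 3 h (log2 fold change 1.397, SE 0.142, adjusted p 1.4e-06). CXCL3 had 14 to 35 counts at 0 h and 54 to 70 at 3 h (1.57, adjusted p 5.8e-04). In CXCL3 the lowest 3 h library lay above the highest 0 h library. For CXCL1, CXCL2 and CXCL8 the rule that named them required groups without overlap. In bulk RNA, more cells that express a gene and more RNA per cell cannot be told apart.

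Of 14 tested genes of colony-stimulating factors and cytokines of the IL6 type with their receptors, 7 were higher and 2 lower. Among all genes tested 9.04% were higher and 8.71% lower. With 1 library left out 6 or 7 of the list were higher and 1 to 3 lower. Under every alternative 6 were higher and 1 lower. CSF2, the granulocyte-macrophage colony-stimulating factor, measured 10.02, 10.3 and 11.2 CPM at 0 h and 57.3, 54.7 and 48.3 CPM at 3 h (log2 fold change 2.34, SE 0.122, adjusted p 9.7e-11). IL6 was 3.09-fold higher, at 9.83, 10.9 and 10.3 CPM at 0 h and 34.3, 29.6 and 32.2 CPM at 3 h (log2 fold change 1.63, SE 0.103, adjusted p 1.5e-09). IL11, which signals through the same receptor chain as IL6, stood at 16.4, 14.2 and 14.6 CPM at 0 h and 43.1, 42.2 and 40.9 CPM at 3 h (log2 fold change 1.48, SE 0.0797, adjusted p 1.1e-10). The 3 libraries of each time differed by little beside that gap. LIF measured 55.8, 50.6 and 48.9 CPM at 0 h and 103, 108 and 93.9 CPM at 3 h (0.97, adjusted p 3.7e-09). CLCF1 measured 28.4, 29.5 and 23.8 CPM at 0 h and 39.8, 44.7 and 40.5 CPM at 3 h (0.61, adjusted p 1.1e-04). CSF3, the neutrophil growth factor, was near the detection limit, with 6 to 7 counts at 0 h and 12 to 20 at 3 h (1.59, adjusted p 0.00359). SOCS3, the feedback inhibitor of this cytokine family, was lower at 26.8, 22.9 and 24.95 CPM against 32.5, 31.3 and 32.9 CPM at 0 h (-0.37, adjusted p 0.00308). The other lower member, the receptor gene LIFR (-0.57, adjusted p 0.0289), lost its call on leaving out library 2 or 3 of 0 h (adjusted p 0.0827 and 0.106) or library 2 or 3 of 3 h (adjusted p 0.129 and 0.0528).

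Other mediators of inflammation had low counts. TNF itself had 0 counts in all 3 libraries at 0 h and 9, 9 and 8 at 3 h, at least 10.4-fold higher over a floor of 3 counts for the 0 h group (adjusted p 3.3e-04). LTB, a membrane partner of lymphotoxin, had 11, 4 and 8 counts at 0 h and 23, 22 and 23 at 3 h (1.81, adjusted p 0.00117). IL1A had 6, 7 and 8 counts against 16, 15 and 21 (1.55, adjusted p 0.00186). PTGS2, the inducible cyclooxygenase of prostaglandin synthesis, measured 2.05, 2.37 and 1.87 CPM at 0 h and 5.27, 4.27 and 7.31 CPM at 3 h (1.42, adjusted p 0.00163). PTGES, which makes prostaglandin E from its product, was lower (-0.39, adjusted p 0.00646). CX3CL1, a chemokine for lymphocytes and monocytes, was lower at 2.15, 2.41 and 1.86 CPM against 3.36, 3.302 and 3.55 CPM (-0.67, adjusted p 0.00904). CD274, the gene of the checkpoint ligand PD-L1, measured 25.9, 28.6 and 30.9 CPM at 0 h and 58.4, 57.5 and 56.4 CPM at 3 h (log2 fold change 1.01, SE 0.0827, adjusted p 6.0e-08). VSIR, which encodes the checkpoint protein VISTA, was lower, at 6.6002, 6.29 and 5.23 CPM against 9.96, 9.16 and 9.15 CPM (-0.64, adjusted p 0.00225). NT5E, the adenosine-forming enzyme CD73, was lower too (-0.39, adjusted p 0.00241). The direction thus differed among genes grouped as immune checkpoints, of which 2 of 12 were higher and 2 lower. Each was a share of 16.7%, against 9.04% higher and 8.71% lower among all genes tested. The other higher one, PVR (0.18, adjusted p 0.0237; counts fractional in all 17 libraries), lost its call on leaving out library 1 or 3 of 0 h (adjusted p 0.0587 and 0.108) or library 1 or 2 of 3 h (adjusted p 0.0638 and 0.0541). Scaling by library size, no filter on low counts and a fit of the 2 groups alone also ended it (adjusted p 0.1995, 0.1897 and 0.07001).

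**Figure D2:**
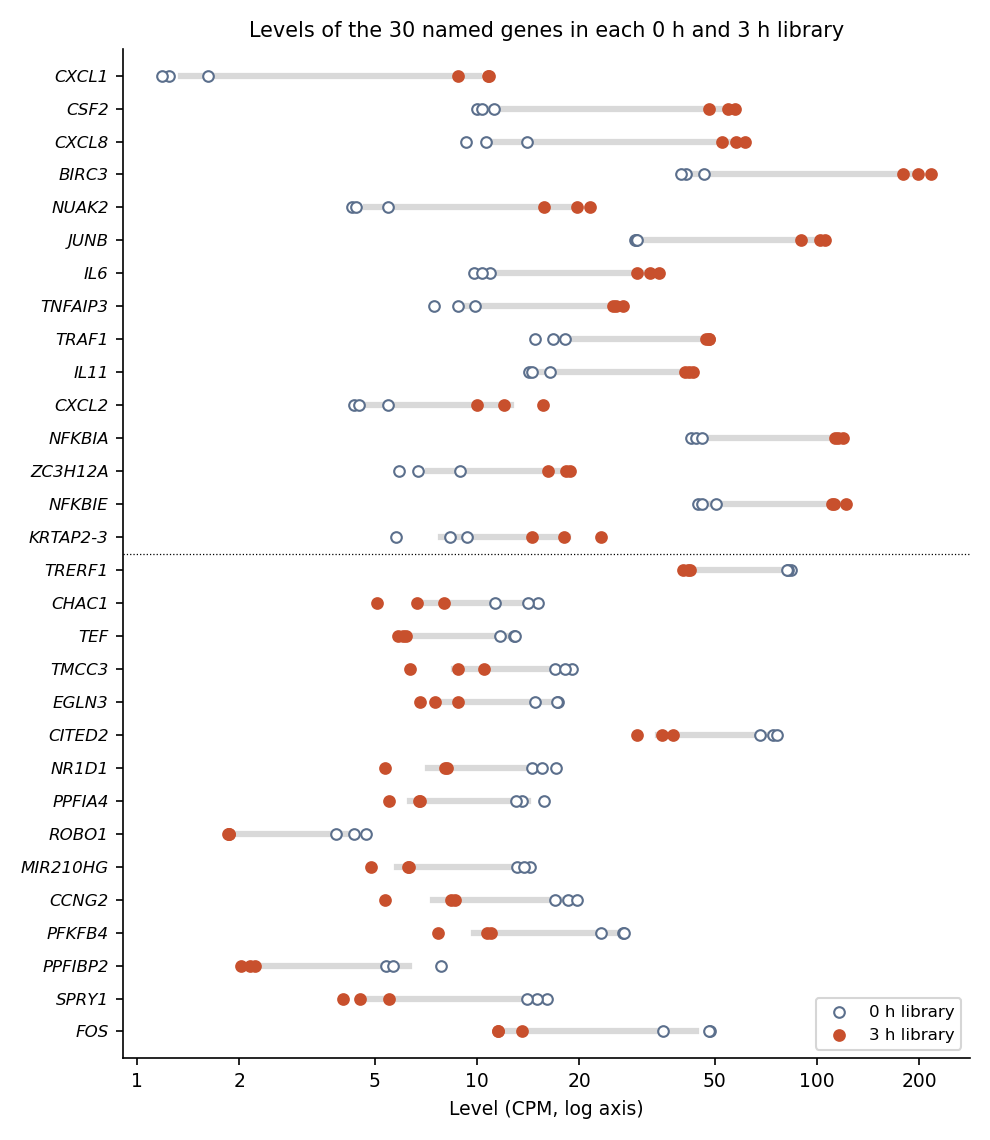
The level (CPM, log axis) in each library of the 30 genes named by rule, 15 higher and 15 lower, ordered by log2 fold change; open circles are the 3 libraries at 0 h, filled circles the 3 at 3 h and grey bars join the group means. The rule took only genes whose groups did not overlap, so by selection all 3 filled circles lie on the same side of the open circles. CXCL1 (7.49-fold higher) is at the top and FOS at the bottom.

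Within the NF-κB system, the genes of the inhibitors rose together and the subunit genes unequally. All 5 tested genes of IκB and nuclear IκB proteins were higher (median log2 fold change 0.96), against 9.04% of all genes tested. NFKBIA, which encodes IκBα, the inhibitor that is resynthesised first when NF-κB is active, measured 42.6, 44.2 and 45.99 CPM at 0 h and 119.5, 115 and 113 CPM at 3 h (log2 fold change 1.39, SE 0.0629, adjusted p 1.5e-11). NFKBIE, the gene of IκBε, measured 50.3, 44.7 and 45.9 CPM at 0 h and 111, 122 and 112 CPM at 3 h (log2 fold change 1.29, SE 0.0645, adjusted p 4.5e-11). BCL3, a nuclear partner of p50 and p52 dimers, stood at 12.7, 14.8 and 12.01 CPM and then 26.3, 27.6 and 23.3 CPM (0.96, adjusted p 6.7e-06). NFKBIZ, the gene of the nuclear protein IκBζ, was higher too (0.74, adjusted p 3.3e-05). NFKBIB had the smallest difference (0.34, adjusted p 0.0169) and lost its call on leaving out library 3 of 0 h (adjusted p 0.0771), library 1 of 3 h (adjusted p 0.0519) or library 2 of 3 h (adjusted p 0.108).

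Of the 5 subunit genes, 3 were higher (60.0%, against 9.04% of all genes tested). RELB measured 18.2, 20.6 and 20.97 CPM at 0 h and 44.9, 46.3 and 45.7 CPM at 3 h (log2 fold change 1.196, SE 0.0847, adjusted p 6.3e-09). Its partner gene NFKB2 measured 82.7, 79.8 and 78.4 CPM at 0 h and 161, 178 and 148 CPM at 3 h (log2 fold change 1.01, SE 0.0675, adjusted p 2.7e-09). NFKB1, which encodes p105 and p50, measured 33.2, 40.7 and 38.8 CPM at 0 h and 53.5, 55.1 and 62.5 CPM at 3 h (0.604, adjusted p 2.7e-04). RELA, the gene of the main activating subunit, measured 101, 106 and 101 CPM at 0 h and 108, 112 and 109 CPM at 3 h and was not called (0.09, adjusted p 0.2896). REL had under 8 CPM in every library with overlapping groups (0.51, adjusted p 0.158). MAP3K14, which encodes NIK, was the 1 called gene of 11 in the IKK, NIK and TAK1 list. This share of 9.09% is near the 9.04% higher among all genes tested. MAP3K14 measured 51.1, 54.6 and 48.6 CPM at 0 h and 74.4, 77.3 and 71.1 CPM at 3 h (0.53, adjusted p 3.2e-05). After correction for length and GC trends 3 genes of this list were higher and 2 lower. The IKK genes CHUK (0.06, adjusted p 0.775), IKBKB (0.14, adjusted p 0.134) and IKBKG (0.14, adjusted p 0.224) were not called.

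Of the 10 tested genes of TRAF adaptors, which act upstream of IKK, 4 were higher (40.0%, against 9.04% of all genes tested) and 0 lower. Of 11 tested genes of ubiquitin editors, 3 were higher (27.3%) and 0 lower, with 6 higher after correction for length and GC trends. TRAF1, an adaptor that is itself a κB target, measured 14.9, 16.8 and 18.1 CPM at 0 h and 47.2, 48.2 and 48.04 CPM at 3 h (log2 fold change 1.53, SE 0.07696, adjusted p 4.5e-11). TRAF2, the adaptor that recruits the cIAP ligases, measured 51.8, 51.1 and 45.6 CPM at 0 h and 62.8, 71.7 and 56.7 CPM at 3 h (0.36, adjusted p 0.00328). TRAF3, which with TRAF2 keeps NIK low, stood at 38.6, 42.7 and 42.3 CPM and then 53.8, 51.9 and 50.8 CPM (0.34, adjusted p 0.00318). TRAF4 was higher by a log2 fold change of 0.46 (adjusted p 3.9e-04). The other 6 TRAF genes were not called, and the median log2 fold change of the list was 0.027 (-0.042 when scaled by library size only). TNFAIP3 encodes A20, which removes activating ubiquitin chains, and measured 9.89, 7.48 and 8.77 CPM at 0 h and 26.8, 25.1 and 25.7 CPM at 3 h (log2 fold change 1.57, SE 0.0983, adjusted p 1.5e-09). TNIP1, which binds A20, was higher by less, at 131, 143 and 142 CPM at 0 h and 165, 168 and 161 CPM at 3 h (0.25, adjusted p 0.00258). The deubiquitinase gene CYLD (0.34, adjusted p 0.0181) lost its call on leaving out library 1 or 2 of 0 h (adjusted p 0.0544 and 0.0572) or library 1 or 3 of 3 h (adjusted p 0.06902 and 0.0653), and when scaled by library size only (adjusted p 0.0708).

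Among the inhibitors of apoptosis, BIRC3 had the largest change. It encodes cIAP2, a ubiquitin ligase that acts with TRAF2 in TNF receptor complexes, and measured 41.3, 39.8 and 46.5 CPM at 0 h and 198, 179 and 217 CPM at 3 h (log2 fold change 2.22, SE 0.0953, adjusted p 1.5e-11). BIRC2, the gene of the related cIAP1 on the same chromosome arm, measured 112, 111 and 119 CPM at 0 h and 155, 138 and 179 CPM at 3 h (0.47, adjusted p 9.7e-04). XIAP (-0.02, adjusted p 0.924), BIRC5 (0.05, adjusted p 0.624) and BIRC6 (-0.26, adjusted p 0.168) were not called. In the BCL2 family, MCL1, which blocks the mitochondrial pathway, was higher at 297, 298 and 294 CPM at 0 h and 383, 369 and 401 CPM at 3 h (log2 fold change 0.38, SE 0.0504, adjusted p 3.8e-05). It was the 1 member of 14 called under every alternative. BBC3, which encodes the pro-apoptotic protein PUMA, was also higher (0.62, adjusted p 0.00777), a call that leaving out library 3 of 0 h ended (0.52, adjusted p 0.0531). CFLAR, the gene of the caspase-8 inhibitor FLIP, measured 57.4, 61.2 and 64.6 CPM at 0 h and 78.02, 74.2 and 80.2 CPM at 3 h (0.34, adjusted p 4.1e-04). FADD measured 60.2, 72.1 and 59.1 CPM at 0 h and 46.9, 50.6 and 48.9 CPM at 3 h (-0.39, adjusted p 0.002999). Both had counts fractional in all 17 libraries. CASP8 measured 27.6, 26.6 and 30.9 CPM at 0 h and 27.7, 26.6 and 26.9 CPM at 3 h and was not called (-0.07, adjusted p 0.578), and its groups overlapped.

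The genes of the TRAIL receptors themselves differed little. TNFRSF10B measured 116, 129 and 119 CPM at 0 h and 137, 141 and 139 CPM at 3 h (0.202, adjusted p 0.0203). TNFRSF10A measured 23.1, 23.8 and 25.5 CPM at 0 h and 28.7, 29.4 and 28.8 CPM at 3 h (0.26, adjusted p 0.0187). Neither call held when library 1 of 0 h was left out (adjusted p 0.0648 for TNFRSF10B and 0.0536 for TNFRSF10A), or when library 2 of 3 h was left out (0.05995 and 0.0584). The same was true when only library size was used for scaling (0.149 and 0.0908) or when low counts were not filtered (0.0937 and 0.0891). The TNFRSF10B call also failed on leaving out library 3 of 0 h (adjusted p 0.0764), and that of TNFRSF10A on leaving out library 2 of 0 h (adjusted p 0.0612). Other receptors of the family moved in both directions. TNFRSF12A, the receptor of the cytokine TWEAK, measured 329.8, 308 and 288 CPM at 0 h and 443, 492 and 399 CPM at 3 h (0.53, adjusted p 0.00213). RELT was higher by a log2 fold change of 0.47 (adjusted p 0.00109). Both TNF receptor genes were lower. TNFRSF1A measured 103, 115 and 108 CPM at 0 h and 78.5, 80.5 and 80.3 CPM at 3 h (-0.45, adjusted p 1.1e-05), and TNFRSF1B 11.5, 12.8 and 11.1 CPM at 0 h and 9.34, 8.93 and 8.25 CPM at 3 h (-0.42, adjusted p 0.00385). TNFSF10, the gene of TRAIL, was not called (-0.24, adjusted p 0.145).

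Of 23 tested effector targets, genes that NF-κB is known to drive in many cells and some of which are named above, 12 were higher (52.2%, against 9.04% of all genes tested) and 1 lower. With 1 library left out 10 or 11 were higher, and 10 were higher under every alternative. PLAU, the urokinase protease, measured 428, 413 and 402 CPM at 0 h and 676, 711 and 671 CPM at 3 h (log2 fold change 0.73, SE 0.0522, adjusted p 7.6e-09; counts fractional in all 17 libraries). ICAM1, an adhesion molecule for leukocytes, measured 34.3, 40.4 and 40.6 CPM at 0 h and 53.9, 55.4 and 57.3 CPM at 3 h (0.53, adjusted p 2.6e-05). SDC4, a heparan sulfate proteoglycan, and TNFAIP2 were higher by log2 fold changes of 0.36 (adjusted p 1.7e-04) and 0.33 (adjusted p 0.00192). Classical targets that were not called included SOD2 (-0.24, adjusted p 0.0516), C3 (-0.22, adjusted p 0.193), VCAM1 (0.02, adjusted p 0.9803) and LCN2 (0.03, adjusted p 0.948). The 1 lower member, TNC (-0.31, adjusted p 0.02005), lost its call on leaving out library 2 or 3 of 0 h (adjusted p 0.0911 and 0.0634) or library 1 or 2 of 3 h (adjusted p 0.0643 and 0.111).

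**Figure D3:**
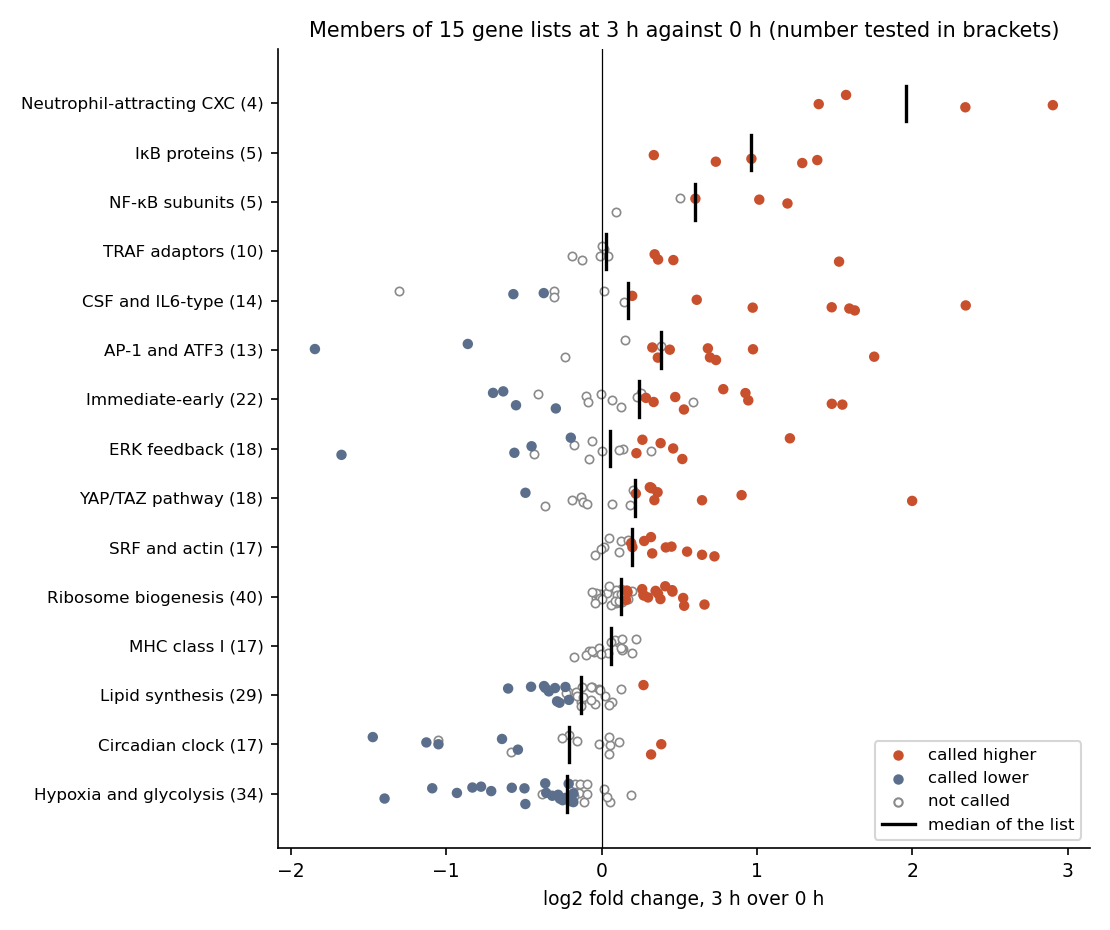
Log2 fold change at 3 h over 0 h (x axis) of the tested members of 15 gene lists, 1 row per list with the number of members tested in brackets; filled points are called genes (red higher, blue lower), open points were not called and the black bar is the list's median. The 4 CXC chemokine genes and the 5 IκB genes lie wholly to the right of 0, and called genes of hypoxia and glycolysis, 22 of 34, lie to the left.

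The AP-1 genes moved in both directions, also within the FOS family. Of 13 tested members of the AP-1 and ATF3 list, 8 were higher and 2 lower, with the same counts whichever of the 6 libraries was left out. The shares were 61.5% and 15.4%, against 9.04% and 8.71% of all genes tested. JUNB measured 29.2, 29.5 and 29.5 CPM at 0 h and 102, 106 and 89.7 CPM at 3 h (log2 fold change 1.75, SE 0.0995, adjusted p 3.5e-10). FOSL1, the gene of FRA-1, measured 635, 579 and 541 CPM at 0 h and 1158, 1216 and 1073 CPM at 3 h (log2 fold change 0.97, SE 0.0815, adjusted p 8.2e-08). JUN measured 158, 159 and 143 CPM at 0 h and 248, 271 and 247 CPM at 3 h (0.74, adjusted p 8.6e-07). Higher too were MAFF (0.697, adjusted p 2.4e-06), ATF3 (0.68, adjusted p 1.7e-04), MAFK (0.44, adjusted p 0.001498; counts fractional in all 17 libraries), MAFG (0.36, adjusted p 6.2e-04) and FOSL2 (0.33, adjusted p 0.00696). In the opposite direction, FOS measured 48.6, 35.3 and 48.04 CPM at 0 h and 13.6, 11.6 and 11.5 CPM at 3 h (log2 fold change -1.85, SE 0.142, adjusted p 6.0e-08). This was 3.59-fold lower, the largest fall of the 30 genes named by rule. FOSB measured 8.15, 5.17 and 7.28 CPM at 0 h and 3.71, 4.43 and 3.23 CPM at 3 h (-0.86, adjusted p 0.00827). Its highest 3 h library was below its lowest 0 h library.

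Immediate-early genes, which are transcribed within minutes of a stimulus without new protein synthesis, were mixed. Of 22 tested, 9 were higher (40.9%, against 9.04% of all genes tested) and 4 lower (18.2%, against 8.71%). NR4A1, an orphan nuclear receptor, measured 1.43, 1.31 and 1.43 CPM at 0 h and 4.005, 3.96 and 3.73 CPM at 3 h (1.48, adjusted p 7.7e-06). IER3, a survival gene controlled by NF-κB, measured 357, 336 and 341 CPM at 0 h and 678, 701 and 612 CPM at 3 h (0.94, adjusted p 4.8e-08; counts fractional in all 17 libraries). SRF, the serum response factor, measured 145, 152 and 141 CPM at 0 h and 199.6, 204 and 204 CPM at 3 h (0.47, adjusted p 1.9e-06). IER2 measured 101, 101 and 94.97 CPM at 0 h and 146, 153 and 132 CPM at 3 h (0.53, adjusted p 7.0e-04). EGR1 measured 33.9, 31.1 and 38.8 CPM at 0 h and 49.5, 39.3 and 34.8 CPM at 3 h with overlapping groups (0.25, adjusted p 0.222). MYC measured 172, 175 and 173 CPM at 0 h and 175, 171 and 171 CPM at 3 h (-0.01, adjusted p 0.936), and neither was called. Of the KLF genes, KLF5 was lower, at 22.1, 16.5 and 19.5 CPM against 26.5, 28.3 and 30.5 CPM (-0.55, adjusted p 7.0e-04).

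Genes that restrain ERK signalling also divided. SPRY1, a Sprouty inhibitor of receptor tyrosine kinase signalling, fell from 16.1, 15.1 and 14.002 CPM at 0 h to 4.52, 4.04 and 5.52 CPM at 3 h (log2 fold change -1.67, SE 0.111, adjusted p 2.7e-09). Its relative SPRY4 was higher, at 74.6, 68.8 and 68.3 CPM at 0 h and 102, 101 and 100.2 CPM at 3 h (0.52, adjusted p 1.3e-05), and so was SPRY2 (0.26, adjusted p 0.00376). The MAP kinase phosphatase genes DUSP5 (0.46, adjusted p 1.1e-05), DUSP8 (1.21, adjusted p 0.00628) and DUSP14 (0.38, adjusted p 9.9e-04) rose. DUSP6, a standard readout of ERK activity, was not called at 287, 251 and 277 CPM at 0 h and 260.3, 259 and 250.2 CPM at 3 h (-0.08, adjusted p 0.341). HBEGF, a ligand of the EGF receptor, measured 72.8, 76.7 and 70.2 CPM at 0 h and 129, 129 and 135 CPM at 3 h (log2 fold change 0.84, SE 0.0571, adjusted p 3.8e-09). ERBB3, a receptor of the same family as that of EGF, fell from 3.92, 3.302 and 3.05 CPM to 1.93, 1.398 and 1.94 CPM (-0.96, adjusted p 0.00126). In the whole ERK feedback list of 18 genes 6 were higher and 4 lower (33.3% and 22.2%, against 9.04% and 8.71% of all genes tested). Only 2 were lower when library 3 of 0 h or library 2 of 3 h was left out. ZC3H12A, which encodes the ribonuclease Regnase-1 that cuts cytokine mRNAs such as that of IL6, measured 6.72, 5.92 and 8.899 CPM at 0 h and 18.8, 18.2 and 16.2 CPM at 3 h (log2 fold change 1.303, SE 0.131, adjusted p 1.2e-06). ZFP36L1, which promotes decay of mRNAs with AU-rich elements, measured 159.8, 155 and 155 CPM at 0 h and 233, 225 and 231 CPM at 3 h (0.55, adjusted p 1.1e-05).

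Targets of the co-activator YAP and of SRF were more often higher than lower. Of 18 tested genes of the YAP/TAZ pathway and its targets, 9 were higher and 1 lower, against 9.04% and 8.71% of all genes tested. With 1 library left out 7 or 8 of these 18 were higher and 1 or 2 lower. When scaled by library size only, 7 were higher and 2 lower. NUAK2, an AMPK-related kinase that is a YAP target, measured 4.29, 4.42 and 5.48 CPM at 0 h and 19.7, 21.5 and 15.7 CPM at 3 h (log2 fold change 1.999, SE 0.139, adjusted p 5.3e-09). ANKRD1, a standard YAP target, measured 329, 298 and 328 CPM at 0 h and 592, 578 and 614 CPM at 3 h (log2 fold change 0.901, SE 0.0589, adjusted p 2.5e-09). CCN1, the matricellular protein CYR61, measured 1455, 1321 and 1273 CPM at 0 h and 2073, 2188 and 2076 CPM at 3 h (0.65, adjusted p 2.1e-06). CCN2 measured 310.4, 320.4 and 301 CPM at 0 h and 385, 359 and 417 CPM at 3 h (0.32, adjusted p 6.5e-04). WWTR1, the gene of the co-activator TAZ, was lower at 42.7, 39.4 and 50.1 CPM against 58.4, 61.5 and 66.2 CPM (-0.49, adjusted p 0.00337), and YAP1 was not called (-0.36, adjusted p 0.0727). Of 17 tested SRF and actin cytoskeleton targets, 10 were higher (58.8%, against 9.04% of all genes tested) and 0 lower. With 1 library left out 7 to 10 were higher. TAGLN measured 9.71, 8.78 and 9.65 CPM at 0 h and 16.5, 16.1 and 14.1 CPM at 3 h (0.73, adjusted p 9.9e-04; counts fractional in all 17 libraries). ZYX, a focal adhesion protein, measured 177, 174 and 173 CPM at 0 h and 236, 257 and 223 CPM at 3 h (0.45, adjusted p 5.7e-05). MYL9, a myosin light chain, measured 157, 164 and 157 CPM at 0 h and 216, 232 and 189 CPM at 3 h (0.41, adjusted p 0.00197). VCL (-0.04, adjusted p 0.808), FLNA (0.02, adjusted p 0.925) and MYH9 (-0.001, adjusted p 0.995) were not called.

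Genes of the TGF-β system also moved both ways. PMEPA1, a feedback gene of TGF-β signalling, measured 122, 121 and 122 CPM at 0 h and 205, 203 and 197 CPM at 3 h (log2 fold change 0.73, SE 0.05104, adjusted p 5.5e-09). INHBA, which encodes the subunit of activin A, measured 3.92, 4.11 and 4.17 CPM at 0 h and 7.64, 5.75 and 7.24 CPM at 3 h (0.76, adjusted p 0.00282). TGFBR3, the co-receptor betaglycan, was lower at 4.52, 3.96 and 4.45 CPM against 7.34, 7.16 and 6.85 CPM (-0.72, adjusted p 0.00484). The list of 26 held 5 higher and 7 lower genes (19.2% and 26.9%, against 9.04% and 8.71% of all genes tested). It held 4 lower when library 2 or 3 of 0 h or library 1 of 3 h was left out. For library 2 of 3 h it held 3 lower. Among cell cycle inhibitors and p53 targets, GADD45A measured 107, 93.7 and 92.1 CPM at 0 h and 173, 176 and 155 CPM at 3 h (0.78, adjusted p 2.1e-06) and GADD45B 64.02, 56.998 and 53.6 CPM at 0 h and 81.8, 86.5 and 73.7 CPM at 3 h (0.47, adjusted p 8.0e-04). CDKN1A, the gene of p21, measured 104, 121 and 111 CPM at 0 h and 153, 150.5 and 151 CPM at 3 h (0.43, adjusted p 3.2e-05). MDM2 (0.01, adjusted p 0.9199) and CCND1 (-0.02, adjusted p 0.853) were not called. CCNG2, an unusual cyclin tied to growth arrest, fell from 16.9, 18.6 and 19.7 CPM to 8.602, 5.36 and 8.39 CPM (log2 fold change -1.299, SE 0.134, adjusted p 1.6e-06).

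Genes of hypoxia and glycolysis were the list with the largest share of falls among those described here. Of 34 tested, 22 were lower (64.7%) and 0 higher, against 8.71% of all genes tested, with a median log2 fold change of -0.225. The number lower was 14 when library 2 of 0 h was left out and 15 to 21 for each other library. PFKFB4, which sets the level of fructose 2,6-bisphosphate, an activator of glycolysis, measured 23.2, 26.97 and 27.01 CPM at 0 h and 10.98, 10.7 and 7.67 CPM at 3 h (log2 fold change -1.397, SE 0.108, adjusted p 2.5e-08; counts fractional in all 17 libraries). EGLN3, a prolyl hydroxylase that marks HIF-α and is itself raised by HIF, fell from 17.4, 14.8 and 17.2 CPM to 6.82, 7.53 and 8.82 CPM (log2 fold change -1.09, SE 0.1101, adjusted p 1.3e-06). NDRG1 measured 140.2, 181 and 182 CPM at 0 h and 92.3, 79.9 and 91.6 CPM at 3 h (-0.93, adjusted p 4.2e-06). SLC2A3, the glucose transporter GLUT3, measured 18.8, 20.9 and 20.5 CPM at 0 h and 10.98, 11.03 and 11.8 CPM at 3 h (-0.83, adjusted p 5.3e-05). PDK1, which keeps pyruvate out of the citric acid cycle, measured 35.3, 35.3 and 35.6 CPM at 0 h and 22.5, 17.6 and 24.7 CPM at 3 h (-0.71, adjusted p 3.6e-05). P4HA1, a collagen prolyl hydroxylase, fell by 0.58 on the log2 scale (adjusted p 1.0e-04), PFKFB3 fell by 0.497 (adjusted p 1.8e-04) and PGK1 fell by 0.36 (adjusted p 0.001999). Known HIF targets that were not called included VEGFA at 354, 322 and 313 CPM at 0 h and 344, 356 and 328 CPM at 3 h (0.06, adjusted p 0.557), ADM (0.19, adjusted p 0.138), CA9 (-0.14, adjusted p 0.335) and SLC2A1 (0.03, adjusted p 0.725). HIF1A was not called either and its groups overlapped (-0.39, adjusted p 0.1297).

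Some of the named genes outside that list are known in the same context. MIR210HG, the host transcript of the hypoxia-induced miR-210, fell from 14.3, 13.1 and 13.8 CPM to 6.304, 6.29 and 4.88 CPM (log2 fold change -1.24, SE 0.125, adjusted p 1.3e-06). CITED2, which competes with HIF-α for its co-activators, fell from 68.1, 74.1 and 76.5 CPM to 35.1, 29.7 and 37.8 CPM (log2 fold change -1.09, SE 0.0869, adjusted p 4.4e-08). PPFIA4, which encodes a liprin, fell from 15.8, 13.6 and 13.01 CPM to 6.82, 5.51 and 6.74 CPM (-1.15, adjusted p 1.8e-05). The related liprin gene PPFIBP2 fell from 5.41, 5.67 and 7.84 to 2.15, 2.02 and 2.22 CPM (log2 fold change -1.56, SE 0.166, adjusted p 2.2e-06). The rule that named these genes took only genes whose groups did not overlap. DDIT4, an inhibitor of mTORC1 that is induced by hypoxia and by energy stress, measured 75.3, 80.9 and 76.8 CPM at 0 h and 48.9, 46.6 and 39.6 CPM at 3 h (log2 fold change -0.79, SE 0.0718, adjusted p 3.0e-07). SESN2, a sestrin that also restrains mTORC1, measured 15.4, 14.7 and 13.6 CPM at 0 h and 10.2, 9.86 and 8.68 CPM at 3 h (-0.61, adjusted p 8.5e-04).

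Of 17 tested clock genes, 5 were lower (29.4%, against 8.71% of all genes tested), 2 higher (11.8%, against 9.04%) and 10 not called. The 5 were lower under every alternative and were DBP, NR1D1, TEF, BHLHE41 and NR1D2. NR1D1, the gene of the repressor REV-ERBα, measured 14.6, 17.1 and 15.5 CPM at 0 h and 8.16, 8.08 and 5.38 CPM at 3 h (log2 fold change -1.13, SE 0.134, adjusted p 8.8e-06; counts fractional in all 17 libraries). TEF, a transcription factor of the PAR family, fell from 11.7, 12.8 and 12.9 CPM to 5.86, 6.06 and 6.17 CPM (log2 fold change -1.05, SE 0.1104, adjusted p 2.0e-06). Its relative DBP went from 77 to 78 counts per library to 23 to 24 (-1.47, adjusted p 1.5e-05; counts fractional in all 17 libraries). These 3 are genes that the BMAL1 and CLOCK complex activates. ARNTL, which encodes BMAL1 (0.05, adjusted p 0.887), CLOCK (-0.16, adjusted p 0.388) and PER2 (0.11, adjusted p 0.513) were not called. BHLHE40, a repressor that acts on the same E-box sites, was higher at 87.4, 77.7 and 88.3 CPM at 0 h and 114, 112 and 105 CPM at 3 h (0.38, adjusted p 2.1e-04). The other higher gene was CRY1, a repressor of that complex (0.32, adjusted p 0.03703). It lost its call on leaving out any library other than library 2 of 3 h (adjusted p 0.0647 to 0.141) and when scaled by library size only (adjusted p 0.119).

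Among ATF4 targets, ER chaperones and enzymes of lipid synthesis, called genes were mostly lower. CHAC1, a glutathione-degrading enzyme under ATF4, measured 15.1, 14.1 and 11.3 CPM at 0 h and 8.01, 6.68 and 5.09 CPM at 3 h (log2 fold change -1.04, SE 0.155, adjusted p 1.3e-04). TRIB3, another ATF4 target, measured 36.1, 34.3 and 31.99 CPM at 0 h and 24.8, 25.5 and 21.7 CPM at 3 h (-0.51, adjusted p 3.9e-04). ATF4 itself (0.07, adjusted p 0.558), DDIT3 (-0.13, adjusted p 0.448) and ASNS (0.02, adjusted p 0.915) were not called. Of the 23 tested genes of the list, 5 were lower (21.7%, against 8.71% of all genes tested) and 1 higher. The amino acid transporter gene SLC7A5 was higher at 381, 407 and 371 CPM at 0 h and 549, 560.4 and 519.6 CPM at 3 h (0.49, adjusted p 6.5e-06; counts fractional in all 17 libraries). Of 19 tested genes of ER chaperones and the unfolded protein response, 6 were lower (31.6%, against 8.71%) and 1 higher. Among the lower ones were ATF6 (-0.295, adjusted p 0.00337) and HERPUD1 (-0.27, adjusted p 0.00517). HSPA5, the gene of BiP, was not called (-0.16, adjusted p 0.0508). Of 29 genes of cholesterol and fatty acid synthesis, 1 was higher and 10 were lower (34.5%, against 8.71%), or 7 to 9 with 1 library left out. The lower share is that of the full set of libraries. The lower genes included FADS2 at 90.3, 107 and 98.3 CPM at 0 h and 72.1, 74.2 and 69.8 CPM at 3 h (-0.45, adjusted p 3.0e-04), ELOVL6 (-0.37, adjusted p 2.7e-04) and SCD (-0.34, adjusted p 0.00163). SQLE was not called (0.02, adjusted p 0.892).

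Of 40 tested genes of ribosome assembly in the nucleolus, 16 were higher (40.0%, against 9.04% of all genes tested), 0 lower and 24 not called, with a median log2 fold change of 0.126. When scaled by library size only, 11 were higher and the median was 0.057, and 11 to 16 were higher with 1 library left out. RRS1, an assembly factor of the large subunit, measured 50.8, 49.6 and 49.8 CPM at 0 h and 82.6, 78.9 and 76.3 CPM at 3 h (0.66, adjusted p 1.8e-05). POLR1C, a subunit shared by RNA polymerases I and III, measured 79.8, 74.9 and 72.3 CPM at 0 h and 109.8, 117 and 102 CPM at 3 h (0.53, adjusted p 7.1e-05), and NOP16 105, 99.9 and 94.5 CPM at 0 h and 137, 157 and 136 CPM at 3 h (0.52, adjusted p 2.0e-04). Both had counts fractional in all 17 libraries. NCL, the abundant nucleolin gene, was not called (-0.01, adjusted p 0.936). Cytosolic ribosomal protein genes were higher in 35 of 82 (42.7%, against 9.04%) and lower in 0, with a median of 0.254. The number higher was 3 when library 2 of 0 h was left out, 5 for library 3 of 0 h, 2 for library 2 of 3 h and 17 for library 1 of 3 h. The longest annotated transcripts of the ribosomal protein genes had a median of 1864 nt, against 3333 nt for all genes tested. The 3 h libraries had the more negative length slopes given above. After correction for length and GC trends 35 were higher and 3 lower, with a median of 0.18. ZNF zinc finger genes had a median of 4023 nt by the same measure. They were higher in 74 of 457 (16.2%, against 9.04%) and lower in 11 (2.41%, against 8.71%). The number higher was 40 when library 2 or 3 of 0 h was left out, 43 for library 1 of 3 h, 45 for library 2 of 3 h, 48 when scaled by library size only and 116 after that correction.

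Some groups held no called gene, whereas 17.7% of all genes tested were called. None of 17 tested genes of MHC class I antigen presentation (log2 fold changes from -0.18 to 0.22) was called, nor any of 10 regulators and markers of the epithelial-mesenchymal transition or of the 4 ID genes. By edgeR, the unadjusted p was below 0.05 for 3, 1 and 0 of them, and DESeq2 called 1, 1 and 0. In the transition list 1 gene was lower without a filter on low counts, by upper-quartile scaling or when library 1 of 0 h was left out. A block for the replicate number, with or without correction for length and GC trends, also gave 1 lower there. In the MHC class I list 2 genes were called higher when library 3 of 3 h was left out, and after correction for length and GC trends 2 were higher and 1 lower. Interferon-stimulated genes were higher in 1 of 31 (3.23%, against 9.04% of all genes tested). This was IRF1 (0.31, adjusted p 0.00329, counts fractional in all 17 libraries). Another 5 were lower (16.1%, against 8.71%). These included IFIT2 at 49.5, 49.8 and 50.3 CPM at 0 h and 36.3, 34.3 and 39.1 CPM at 3 h (-0.45, adjusted p 1.8e-04; counts fractional in all 17 libraries) and IFIT1 at 49.5, 43.8 and 49.04 CPM at 0 h and 37.9, 38.1 and 35.2 CPM at 3 h (-0.36, adjusted p 0.00183). ISG15 was not called (0.18, adjusted p 0.296). Proteasome subunits were higher in 1 of 37 (2.7%, against 9.04%) and lower in 0. After correction for length and GC trends 2 of them were higher and 6 lower. When scaled by library size only, 1 was higher and 4 were lower.

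The remaining genes named by rule have varied functions. KRTAP2-3 is a keratin-associated protein gene of a family with closely similar copies, and its counts were fractional in 2 of the 17 libraries. It measured 9.33, 8.35 and 5.79 CPM at 0 h and 18.02, 23.1 and 14.6 CPM at 3 h (log2 fold change 1.24, SE 0.189, adjusted p 2.5e-04). ROBO1, a receptor of the guidance protein SLIT, fell from 3.86, 4.36 and 4.73 CPM to 1.85, 1.86 and 1.86 CPM (log2 fold change -1.21, SE 0.189, adjusted p 2.1e-04). TMCC3, a membrane protein of the endoplasmic reticulum, fell from 16.99, 19.1 and 18.1 CPM to 8.82, 6.37 and 10.5 CPM (-1.07, adjusted p 3.0e-05). TRERF1, a zinc finger regulator of transcription, fell from 84.1, 81.98 and 81.9 CPM to 42.3, 40.4 and 41.7 CPM (log2 fold change -0.996, SE 0.0816, adjusted p 6.0e-08). Its libraries were close together within each group.

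The level at 3 h was set beside those at the other times. Between 3 h and 6 h, 3526 genes were higher (22.9%) and 3114 lower (20.3%) at 6 h. This comparison shares the 3 h libraries with the one against 0 h, and no overlap between them is given. The length slopes of its groups did not overlap, at -0.136 to -0.061 at 3 h and 0.011 to 0.095 at 6 h. Nor did the mitochondrial shares, at 7.99% to 8.97% and 3.97% to 5.45%. Ribosomal protein genes were lower at 6 h in 75 of 82. After correction for length and GC trends 3144 genes were higher and 3132 lower at 6 h. The part of these measures in the calls was otherwise not tested. Means in the following sentences are mean ± SD in CPM (n = 3, and n = 2 at 1 h). CSF2 went from 17.5 ± 2.15 at 1 h and 53.4 ± 4.67 at 3 h to 23.5 ± 1.83 at 6 h (log2 fold change of 6 h over 3 h -1.19, adjusted p 7.4e-07). JUNB went from 50.9 ± 3.97 and 99.2 ± 8.42 to 48.6 ± 3.33 at the same times (-1.03, adjusted p 7.3e-07). NUAK2 went from 11.9 ± 1.72 and 18.96 ± 2.97 to 7.69 ± 1.08 (-1.297, adjusted p 1.4e-06). For these genes the 3 h mean was the highest of the 6 times. NFKBIA had its highest mean at 3 h as well (116 ± 3.33, and 70.4 ± 4.48 at 6 h, -0.72, adjusted p 1.9e-07). BIRC3 (198 ± 18.9 and 187 ± 22.8, -0.08, adjusted p 0.462) and RELB (45.6 ± 0.7103 and 48.5 ± 0.804, 0.09, adjusted p 0.384) were not called between 3 h and 6 h. TRAF1 was higher at 6 h (73.6 ± 3.87) than at 3 h (47.8 ± 0.523; 0.62, adjusted p 5.3e-06), as was BIRC2 (234 ± 16.6 against 158 ± 20.9; 0.57, adjusted p 7.4e-05).

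Genes low at 3 h differed in what followed. FOS was back at 43.1 ± 7.44 at 6 h, from 12.2 ± 1.16 at 3 h and 43.97 ± 7.55 at 0 h (1.82 between 3 h and 6 h, adjusted p 1.6e-07), and then stood at 14.8 ± 1.096 at 12 h. CCNG2 rose from 7.45 ± 1.81 to 22.1 ± 0.896 (1.56, adjusted p 1.9e-07). EGLN3 (9.09 ± 0.944 at 6 h; 0.23, adjusted p 0.114), NDRG1 (81.2 ± 6.64; -0.12, adjusted p 0.372) and PDK1 (23.5 ± 1.96; 0.12, adjusted p 0.335) were not called between 3 h and 6 h. Their means at 24 h were 20.2 ± 0.731, 199 ± 5.34 and 33.01 ± 1.31. NR1D1 stood at 5.895 ± 0.624 at 6 h (-0.29, adjusted p 0.128) and 22.7 ± 2.002 at 12 h.

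**Figure D4:**
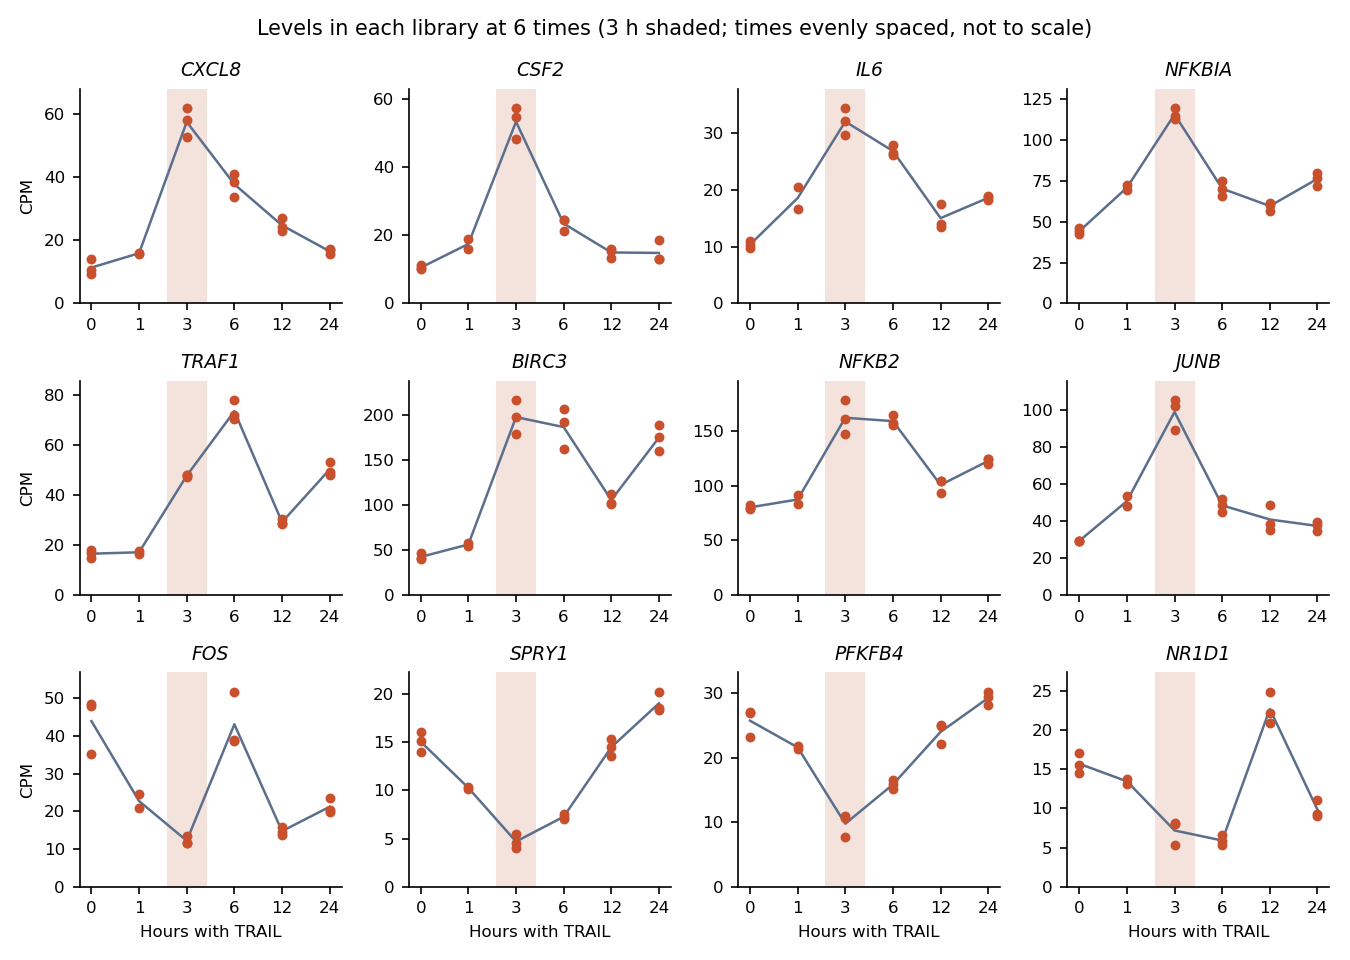
Levels (CPM, linear axes from 0) of 12 genes in each library over the 6 times, with 3 h shaded; points are libraries (2 at 1 h, 3 at every other time) and lines join the means, with the times evenly spaced and not to scale. CXCL8, CSF2, IL6, NFKBIA and JUNB have their highest mean at 3 h, TRAF1 at 6 h, and FOS, SPRY1 and PFKFB4 their lowest mean at 3 h.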

How the data were processed

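RNA of MDA-MB-231 cells was sequenced from stranded mRNA libraries, per the labels' protocols. The authors deposited 1 table of expected counts per gene (fragments estimated by RSEM, per the file name), not scaled to depth or length. The submitters' processing notes name cutadapt 1.18, STAR 2.7.0f and the build hg38; which annotation and which strand option were used for counting is not given in the sources used here, so overlapping and antisense genes may exchange counts. Of the deposited values 10.8% were not whole numbers, a value being called whole within 1e-06. All 58870 entries name a gene, and 58597 matched GENCODE 29, the source of transcript lengths. The longest annotated transcript of each gene was used.

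Expected counts were rounded. Genes were filtered with filterByExpr and libraries scaled by TMM in edgeR 4.0.16 (R 4.3.3). The quasi-likelihood model held 1 mean for each time and was fitted, with the robust option, to all 17 libraries, which then share the estimate of the spread; p-values were adjusted by Benjamini-Hochberg over 15365 genes. All adjusted p-values in the text are from this test unless an alternative is named. Levels are CPM computed from the deposited counts and the TMM-scaled totals. SE is the size of the unshrunken log2 fold change divided by the square root of the F statistic. The script was tested on simulated data.

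The rule for named genes took the 15 highest and 15 lowest log2 fold changes among called genes whose average log2 CPM was 2 or more, no overlap between groups and a name other than a clone number, and list members could be named too. The members and lists were chosen with earlier results of these data known. An exact permutation test of 3 against 3 libraries cannot go below p = 0.1 and was not used. The 19 alternatives were other scalings (RLE, upper quartile, library size), no filter, a minimum mean count of 10, limma-voom (limma 3.58.1), DESeq2 1.42.0, a fit without the robust option, a fit of the 2 groups alone, a block for the replicate number, correction for length and GC trends, both together, unrounded counts and each of the 6 libraries left out. Some list members are not reported here.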

Additional observations from a re-analysis of the deposited data

How the results depend on the processing

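Of the 141 called genes that the text names, 132 were called under each of the 19 alternatives that tested them and gave an adjusted p. The others are marked beside their values, and no called one changed its sign. TNF, with at most 9 counts in any library, was not tested under the minimum mean count of 10. When scaled by library size only, 913 genes were higher and 2153 lower, and the replicate block together with length and GC correction gave 2115 higher. Without a filter on low counts, 159 genes were at least 2-fold higher and 119 at least 2-fold lower, against 60 and 42 by DESeq2. With 1 library left out, the number higher ran from 746 to 1495, the number lower from 666 to 1408, the number at least 2-fold higher from 63 to 145 and at least 2-fold lower from 40 to 76. Between 6 h and 3 h these ranges were 2709 to 3598 higher and 2314 to 3214 lower. The cause of these differences was not tested. The remaining alternatives stayed within 1.5 times of each count. Of the 2727 calls, 50.8% (library 3 of 0 h left out) to 86.4% (library 1 of 0 h left out) were made again, 89.4% by DESeq2 and 96.1% after length and GC correction. The replicate block alone gave 1511 higher and 1397 lower, and it ended the call of no named gene. Deviations from the group means correlated by 0.0106, -0.0398 and 0.167 between libraries of the same number. Between libraries of different numbers these correlations ran from -0.163 to 0.153. With 3 libraries per group, such values cannot show whether the numbers pair the libraries. Low depth limits genes under about 20 counts, such as TNF and CSF3, and no untreated library at 3 h was analysed.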

Other observations

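Transcripts annotated as antisense made up 24 of the 100 genes at least 2-fold higher at 3 h (24.0%) and 8 of the 66 at least 2-fold lower (12.1%), against 5.1% of the genes tested and 4.25% of all genes called higher. Whether the counting used strand is not given in the sources used here, so the antisense values may hold reads of the opposite gene, and the cause of this share was not tested. Protein-coding genes were 60 of those 100.

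Solute carriers were lower in 26 of 193 tested (13.5%, against 8.71% of all genes tested) and higher in 16 (8.29%, against 9.04%). There were 13 lower when library 2 of 0 h was left out, 14 for library 3 of 0 h and 45 when scaled by library size only. DKK1, a secreted Wnt inhibitor, measured 709, 622 and 702 CPM at 0 h and 998, 994 and 1058 CPM at 3 h (log2 fold change 0.58, SE 0.06298, adjusted p 2.6e-06). LGR4, a receptor that strengthens Wnt signalling, was lower at 24.3, 19.96 and 27.03 CPM against 37.5, 40.7 and 47.5 CPM (-0.82, adjusted p 0.00318), and the Notch ligand gene JAG2 was lower too (-0.51, adjusted p 0.00642). In the list of Notch and Wnt feedback targets 2 of 17 were higher (11.8%, against 9.04%) and 3 lower (17.6%, against 8.71%). Of 32 tested integrin, laminin and collagen genes, 2 were higher (6.25%, against 9.04%) and 8 lower (25.0%, against 8.71%). The number lower was 5 when library 2 of 0 h was left out, 4 for library 3 of 0 h or library 1 of 3 h, and 2 for library 2 of 3 h. COL1A1 measured 10.02, 9.53 and 7.59 CPM at 0 h and 17.4, 15.2 and 11.7 CPM at 3 h (0.703, adjusted p 0.00137), and ITGB4, which anchors epithelial cells to laminin, 165, 201 and 177 CPM at 0 h and 139.6, 134 and 127 CPM at 3 h (-0.44, adjusted p 3.9e-04). TIMP3, an inhibitor of matrix proteases, fell from 391, 415 and 425 CPM to 314, 313 and 334 CPM (-0.36, adjusted p 1.2e-04).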
